A study of Mus musculus with 11 samples.

Results

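The genes described here are 8 interferon response genes, Ifit1, Ifit3, Ifitm2, Ifitm3, Irf7, Bst2, Oasl2 and Usp18, measured in green fluorescent cells of the mouse dentate gyrus. They were chosen by symbol: a probe set annotated to that symbol alone stands for each gene, and where a gene had several of these, the brightest on average was used. All 8 were on the array and all 8 passed the filter on low values, out of 16527 genes tested. GFP-positive cells were sorted from dorsal and ventral dentate gyrus of mice on postnatal day 35, and their RNA was amplified and hybridised to 11 single-colour Affymetrix Mouse Gene 1.0 ST arrays, with about 3000 to 5000 sorted cells per group. The kiTbr2GFP line (3 arrays) carries GFP knocked in at Eomes, the gene of the transcription factor Tbr2, and the tgTbr2GFP line (3 arrays) carries GFP on an Eomes bacterial artificial chromosome. The PomcGFP line (2 arrays) carries GFP as a pro-opiomelanocortin transgene, and the NesGFP line (3 arrays) carries it as a Nestin transgene. All 4 lines are GFP reporters without a treatment or a labelled loss of function, their background strain is not given in the sources used here, and Eomes in the knock-in animals carries the reporter at its own locus. Each group is therefore whatever cells of the tissue had enough reporter fluorescence to be sorted, and nothing in the labels ties the arrays of a line to different animals, so a p-value speaks only to array-to-array spread, part of which may be technical.

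Interferons are secreted antiviral cytokines that bind receptors on the cell surface and, through the kinases Jak1 and Tyk2, drive transcription factors of the Stat and Irf families to the promoters of interferon-stimulated genes. Type I interferon acts mainly on a promoter sequence called the interferon-stimulated response element (ISRE), and interferon gamma acts mainly on the gamma-activated sequence (GAS). Most cells of the brain can respond, and many of these genes are also transcribed at a basal level without infection. The products of the 8 genes act at different steps: Ifitm2, Ifitm3 and Bst2 are membrane proteins that hinder entry or release of enveloped viruses, Ifit1, Ifit3 and Oasl2 are cytoplasmic effectors that recognise viral RNA or modulate its sensing, Irf7 is the transcription factor that amplifies type I interferon production, and Usp18 removes the ubiquitin-like modifier Isg15 from proteins and dampens signalling at the type I receptor.

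Promoter sequences were in hand for 7 of the 8 genes, each 300 bases long, running from 250 bases before to 50 bases after the RefSeq start on GRCm38.p6. They were searched on both strands for an ISRE-like sequence, GAAA followed by any 2 bases and GAAA again (on the other strand TTTC, any 2 bases, TTTC), and for a GAS-like palindrome, TTCNNNGAA. The 5 promoters with an ISRE-like match are shown because they let the genes that differed between lines be compared with Ifit1, which shares the sequence and did not pass a test. Each is written 5′ to 3′ in the direction of its gene, and capitals mark the ISRE-like matches. Ifitm3 is at chr7:141010695-141010994 on the minus strand, Ifitm2 at chr7:140955912-140956211 on the minus strand, Bst2 at chr8:71537423-71537722 on the minus strand, Ifit3 at chr19:34583279-34583578 on the plus strand and Ifit1 at chr19:34640639-34640938 on the plus strand.
Ifitm3: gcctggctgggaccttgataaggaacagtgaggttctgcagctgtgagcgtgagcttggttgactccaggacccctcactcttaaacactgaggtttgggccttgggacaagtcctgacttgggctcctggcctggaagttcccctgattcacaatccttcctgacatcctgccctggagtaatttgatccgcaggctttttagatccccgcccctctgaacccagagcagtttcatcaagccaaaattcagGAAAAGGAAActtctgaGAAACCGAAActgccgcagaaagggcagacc
Ifitm2: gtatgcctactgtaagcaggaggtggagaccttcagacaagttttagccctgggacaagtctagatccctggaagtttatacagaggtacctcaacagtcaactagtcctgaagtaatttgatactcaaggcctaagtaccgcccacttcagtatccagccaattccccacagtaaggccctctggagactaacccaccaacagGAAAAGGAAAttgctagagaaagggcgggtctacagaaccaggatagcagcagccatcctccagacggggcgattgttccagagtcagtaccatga
Bst2: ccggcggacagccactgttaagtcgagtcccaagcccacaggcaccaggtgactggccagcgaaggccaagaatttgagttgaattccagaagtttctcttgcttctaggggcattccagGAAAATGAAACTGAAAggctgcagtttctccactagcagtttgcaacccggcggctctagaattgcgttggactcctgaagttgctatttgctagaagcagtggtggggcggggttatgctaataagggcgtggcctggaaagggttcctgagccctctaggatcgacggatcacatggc
Ifit3: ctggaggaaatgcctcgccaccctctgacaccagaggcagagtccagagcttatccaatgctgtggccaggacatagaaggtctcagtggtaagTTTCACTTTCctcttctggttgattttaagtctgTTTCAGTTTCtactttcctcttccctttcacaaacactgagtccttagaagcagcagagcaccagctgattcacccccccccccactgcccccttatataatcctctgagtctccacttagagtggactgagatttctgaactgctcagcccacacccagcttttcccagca
Ifit1: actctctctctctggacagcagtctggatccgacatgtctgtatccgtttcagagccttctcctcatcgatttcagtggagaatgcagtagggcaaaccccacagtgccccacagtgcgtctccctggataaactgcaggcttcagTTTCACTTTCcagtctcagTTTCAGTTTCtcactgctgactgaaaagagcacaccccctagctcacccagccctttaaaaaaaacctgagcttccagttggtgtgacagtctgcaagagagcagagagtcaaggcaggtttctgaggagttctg

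Ifit3 and Ifit1 hold the same pair of matches, TTTCACTTTC and TTTCAGTTTC, which begin 156 and 122 bases before the start in Ifit3 and 104 and 85 bases before it in Ifit1. Ifitm3 and Ifitm2 share GAAAAGGAAA, which begins 46 bases before the start in Ifitm2 and 3 bases after it in Ifitm3, and Ifitm3 holds a second match, GAAACCGAAA, which begins 20 bases after the start. In Bst2 the matches GAAAATGAAA and GAAACTGAAA overlap each other, so they print as 1 run of capitals. GAS-like matches were found in Ifitm3 (TTCTGAGAA) and in Bst2 (TTCCAGGAA), and both overlap an ISRE-like match of the same promoter. Of 32851 promoter windows of the same length in the table, some genes having several, 3.44% held at least 1 ISRE-like match, 0.225% held at least 2, and 8.3% held at least 1 GAS-like match. The windows of Irf7 (chr7:141266375-141266674, minus strand) and Oasl2 (chr5:114896684-114896983, plus strand) did not contain the letters of either search. A match is a description of the sequence, and binding of a factor was not measured.

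Values are log2 intensities, so a difference of 1 is a doubling of signal, and levels of different probe sets cannot be set against each other. The arrays had medians from 7.0 to 7.15 and a lower quartile from 5.90 to 6.20, below which a probe set was treated as not separable from the low end of the array. Over the 16527 genes tested the 3 NesGFP arrays correlated with each other at r = 0.939 to 0.959. They correlated with the arrays of the other lines at 0.766 to 0.839. Arrays of the other 3 lines correlated among themselves at 0.933 to 0.985. NesGFP arrays therefore stood apart from all others, and a large share of all genes differed between NesGFP and each other line. Markers of several cell types were part of this. The mean log2 level of 16 endothelial markers was 6.52 to 6.76 in kiTbr2GFP, 6.66 to 7.36 in tgTbr2GFP and 7.12 to 7.42 in PomcGFP, against 9.67 to 9.80 in NesGFP. For 12 markers of pericytes and smooth muscle it was 6.77 to 6.90 in kiTbr2GFP, 6.79 to 6.95 in tgTbr2GFP and 6.93 to 7.30 in PomcGFP, against 9.17 to 9.36 in NesGFP. The 12 neural stem cell markers were highest in the line labelled NesGFP, at 8.40 to 8.46 in kiTbr2GFP, 8.57 to 8.68 in tgTbr2GFP, 8.31 to 8.39 in PomcGFP and 9.39 to 9.75 in NesGFP. For 10 oligodendrocyte precursor markers the mean was 7.39 to 7.65 in kiTbr2GFP, 7.61 to 7.93 in tgTbr2GFP and 7.84 to 8.03 in PomcGFP, against 9.42 to 9.58 in NesGFP. For 8 meningeal fibroblast markers it was 6.49 to 6.76, 6.58 to 6.75 and 6.74 to 6.78, against 7.47 to 7.76. The NesGFP arrays thus carried markers of stem cells, vessels and other cell types together. The 10 intermediate progenitor markers were at 9.45 to 9.62 in kiTbr2GFP and 9.11 to 9.43 in tgTbr2GFP, above 8.33 to 8.36 in PomcGFP and 8.17 to 8.37 in NesGFP.

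**Figure D1:**
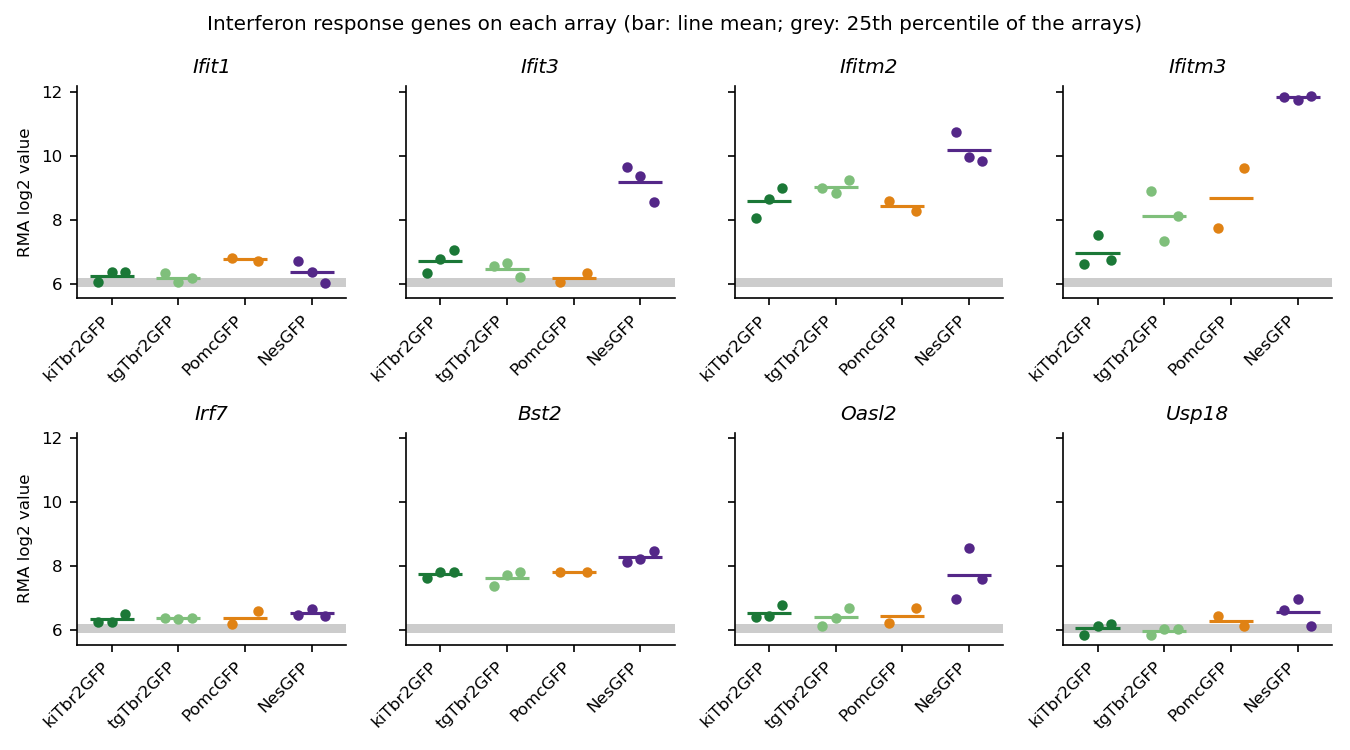
Log2 intensity of each of the 8 interferon response genes (one panel per gene) on every array, by line from left to right kiTbr2GFP, tgTbr2GFP, PomcGFP and NesGFP; points are arrays and bars are line means. All NesGFP arrays of Ifitm3, 11.75 to 11.89, and of Ifit3, 8.57 to 9.65, are above all other arrays, while the NesGFP arrays of Ifit1, 6.04 to 6.72, and of Irf7, 6.44 to 6.67, are within or near the range of the other lines.

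Each of the other lines was set against NesGFP to ask how the interferon response genes differ between the Tbr2 or Pomc reporter populations and the Nestin reporter population. Expression of most of the 8 genes was lower outside NesGFP. In kiTbr2GFP 6 of the 8 were lower and none higher (Ifit3, Ifitm2, Ifitm3, Bst2, Oasl2 and Usp18), with a background of 27.0% of all genes lower and 18.2% higher (limma, adjusted p under 0.05 after Benjamini-Hochberg over 16527 genes). In tgTbr2GFP the same 6 genes were lower, where 25.8% of all genes were lower and 15.8% higher, and in PomcGFP 5 were lower, Usp18 not among them, where 24.0% of all genes were lower and 15.9% higher. Usp18 was above the lower quartile on few arrays of the Tbr2 lines and passed the filter mainly through the other lines, so its calls carry no weight, and 5 genes were lower in each line without it. The median difference over the 8 genes was -0.85 in kiTbr2GFP, -0.90 in tgTbr2GFP and -0.87 in PomcGFP, where the medians of all genes were -0.01, -0.03 and 0.00498. The arrays of 5, 7 and 5 of the 8 genes lay wholly below those of NesGFP in kiTbr2GFP, tgTbr2GFP and PomcGFP, against 29.7%, 28.4% and 30.9% of all genes. The 3 comparisons share the same NesGFP arrays, so they are not separate observations of the NesGFP level. In sorted bulk RNA, fewer cells of a type that expresses a gene and less RNA of that gene per cell cannot be told apart. A test of any difference among the 4 lines passed for 5 of the 8 (limma moderated F test), Ifit3, Ifitm2, Ifitm3, Bst2 and Oasl2, where 43.4% of all genes passed.

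Ifitm3, a membrane protein of endosomes that blocks fusion of enveloped viruses, gave the widest separation. Its log2 level was 6.61, 7.52 and 6.74 on the kiTbr2GFP arrays, 8.91, 7.33 and 8.11 on the tgTbr2GFP arrays, 7.73 and 9.64 on the PomcGFP arrays and 11.85, 11.75 and 11.89 on the NesGFP arrays. Every NesGFP array was more than 2 units above the highest array of any other line, and the NesGFP arrays were also the tightest, at 11.83 ± 0.07 (SD, n = 3) beside 6.96 ± 0.49 in kiTbr2GFP (n = 3), 8.11 ± 0.79 in tgTbr2GFP (n = 3) and 8.68 ± 1.34 in PomcGFP (n = 2). In kiTbr2GFP Ifitm3 was 29.3-fold lower than in NesGFP (log2 difference -4.87 ± 0.47 SE, 95% interval -5.90 to -3.85, limma adjusted p = 8.01e-06), and 2 of the 16527 genes had a lower difference. In tgTbr2GFP it was 13.1-fold lower (-3.71 ± 0.47, adjusted p = 7.14e-05), with 10 genes lower. In PomcGFP it was 8.84-fold lower (-3.14 ± 0.52, adjusted p = 0.000611), with 19 genes lower. The PomcGFP estimate turned on which of its arrays was used: it was -4.10 without PomcGFP array 2 and -2.19 without PomcGFP array 1, both past the test. The arrays with the highest Ifitm3 in their lines were tgTbr2GFP array 1 and PomcGFP array 2, which also had the highest endothelial marker means of their lines (7.36 and 7.42), and kiTbr2GFP array 2, whose endothelial mean of 6.75 was just below the 6.76 of array 3. tgTbr2GFP array 1 was also the highest of its line for oligodendrocyte and astrocyte markers (9.19 and 8.87) and for microglial markers (7.28). kiTbr2GFP array 2 was the highest of its line for oligodendrocyte and astrocyte markers (8.02 and 8.19). PomcGFP array 2 was the higher of its line for mural and astrocyte markers (7.30 and 8.50).

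Ifitm2, its neighbour in the same family, also restricts viral entry. On the log2 scale Ifitm2 was at 8.07, 8.67 and 9.0 on the kiTbr2GFP arrays, 9.0, 8.84 and 9.26 on the tgTbr2GFP arrays, 8.60 and 8.27 on the PomcGFP arrays and 10.74, 9.96 and 9.84 on the NesGFP arrays. No array of another line reached the lowest NesGFP array. Ifitm2 was 3.03-fold lower in kiTbr2GFP (-1.60 ± 0.27, limma adjusted p = 0.000489), 2.21-fold lower in tgTbr2GFP (-1.15 ± 0.27, adjusted p = 0.00474) and 3.35-fold lower in PomcGFP (-1.75 ± 0.30, adjusted p = 0.00074). The family members are similar in sequence, and whether their probe sets also hybridise each other's transcripts was not tested.

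Bst2, also called tetherin, holds budding virus at the cell surface. Its level on the log2 scale was 7.63, 7.82 and 7.82 on the kiTbr2GFP arrays, 7.38, 7.72 and 7.82 on the tgTbr2GFP arrays, 7.82 and 7.82 on the PomcGFP arrays and 8.15, 8.23 and 8.50 on the NesGFP arrays. All NesGFP arrays lay above all others, and the deposited value was the same number on 5 arrays, which held for 2.56% of all probe sets (39.3% shared a number between at least 2 arrays), so its spread in PomcGFP is listed as 0. Bst2 was 1.45-fold lower in kiTbr2GFP (-0.53 ± 0.14, limma adjusted p = 0.00846), 1.57-fold lower in tgTbr2GFP (-0.65 ± 0.14, adjusted p = 0.00279) and 1.38-fold lower in PomcGFP (-0.47 ± 0.16, adjusted p = 0.0318). The PomcGFP call was lost without NesGFP array 3 (adjusted p = 0.0747), PomcGFP array 1 (0.123) or PomcGFP array 2 (0.127), after cyclic loess (0.0592) and when the 2 lines were fitted alone (0.0703).

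Ifit3 belongs to the tetratricopeptide repeat proteins that bind viral RNA in the cytoplasm, and in human cells it stabilises the complex formed with Ifit1. Log2 levels were 6.35, 6.78 and 7.06 on the kiTbr2GFP arrays, 6.56, 6.66 and 6.20 on the tgTbr2GFP arrays, 6.06 and 6.34 on the PomcGFP arrays and 9.65, 9.37 and 8.57 on the NesGFP arrays. The NesGFP arrays lay wholly above the rest, whose levels were between the low end and the median of their arrays, and PomcGFP array 1 was below its lower quartile. Ifit3 was 5.54-fold lower in kiTbr2GFP (-2.47 ± 0.26, limma adjusted p = 1.75e-05), 6.62-fold lower in tgTbr2GFP (-2.73 ± 0.26, adjusted p = 1.03e-05) and lower by a fitted log2 difference of -3.00 ± 0.29 in PomcGFP (adjusted p = 1.55e-05), where the low signal leaves the size uncertain. The tgTbr2GFP levels were also low, at percentiles 25.6 to 37.9 of their arrays, which limits the size of that difference too. Ifit3 was past the test under every alternative tried for these 3 comparisons.

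Ifit1, the partner of Ifit3 that recognises RNA caps lacking a host methyl group, did not follow it. In log2 units Ifit1 was at 6.05, 6.37 and 6.36 on the kiTbr2GFP arrays, 6.34, 6.04 and 6.20 on the tgTbr2GFP arrays, 6.81 and 6.73 on the PomcGFP arrays and 6.72, 6.38 and 6.04 on the NesGFP arrays. All values lay in the lower part of their arrays, at percentiles 24.0 to 43.2. The PomcGFP arrays were the highest, and the NesGFP arrays spanned the range of the Tbr2 lines. The difference from NesGFP was -0.12 ± 0.17 in kiTbr2GFP (limma adjusted p = 0.584), -0.19 ± 0.17 in tgTbr2GFP (adjusted p = 0.411) and 0.38 ± 0.19 in PomcGFP (adjusted p = 0.128). The PomcGFP difference was 0.55 and past the test without NesGFP array 1 (adjusted p = 0.0246). Thus Ifit3 and Ifit1, whose promoters above hold the same ISRE-like letters, had different patterns over the 4 lines. Ifit1 was in the lower part of every array, and Ifit3 was so outside NesGFP.

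Oasl2 is a member of the oligoadenylate synthetase family of antiviral enzymes. Oasl2 had log2 levels of 6.42, 6.45 and 6.79 on the kiTbr2GFP arrays, 6.14, 6.40 and 6.71 on the tgTbr2GFP arrays, 6.22 and 6.70 on the PomcGFP arrays and 6.98, 8.58 and 7.61 on the NesGFP arrays. The NesGFP arrays were all highest but differed from each other by more than the other lines did. On the arrays of the other lines Oasl2 was at percentiles 26.8 to 39.5, and this low signal leaves the size of its differences uncertain. Oasl2 was 2.25-fold lower in kiTbr2GFP (-1.17 ± 0.33, limma adjusted p = 0.0124), 2.48-fold lower in tgTbr2GFP (-1.31 ± 0.33, adjusted p = 0.00711) and 2.40-fold lower in PomcGFP (-1.27 ± 0.36, adjusted p = 0.0167). Without NesGFP array 2 the kiTbr2GFP difference was -0.74, the tgTbr2GFP difference -0.88 and the PomcGFP difference -0.84, and without PomcGFP array 1 the PomcGFP call was lost (adjusted p = 0.136), as it was when the 2 lines were fitted alone (0.0904).

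Irf7, the amplifying transcription factor, showed no difference past the test. The log2 signal was 6.25, 6.25 and 6.52 on the kiTbr2GFP arrays, 6.39, 6.36 and 6.39 on the tgTbr2GFP arrays, 6.19 and 6.60 on the PomcGFP arrays and 6.49, 6.67 and 6.44 on the NesGFP arrays. The lines overlapped, except that all tgTbr2GFP arrays were below all NesGFP arrays, by a narrow margin. The difference from NesGFP was -0.19 ± 0.13 in kiTbr2GFP (95% interval -0.48 to 0.10, limma adjusted p = 0.255), -0.16 ± 0.13 in tgTbr2GFP (-0.44 to 0.13, adjusted p = 0.373) and -0.14 ± 0.15 in PomcGFP (-0.46 to 0.18, adjusted p = 0.485).

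Usp18, the feedback protease, was near the low end of the arrays in the Tbr2 lines. Usp18 had log2 levels of 5.86, 6.15 and 6.20 on the kiTbr2GFP arrays, 5.86, 6.03 and 6.03 on the tgTbr2GFP arrays, 6.46 and 6.15 on the PomcGFP arrays and 6.63, 6.97 and 6.15 on the NesGFP arrays. It exceeded the lower quartile on 1 kiTbr2GFP array, 0 tgTbr2GFP arrays, both PomcGFP arrays and all 3 NesGFP arrays, so the filter admitted it largely through lines in which it was higher. No fold is given for this reason. The fitted difference was -0.51 ± 0.19 in kiTbr2GFP (limma adjusted p = 0.0458), with overlapping arrays, -0.61 ± 0.19 in tgTbr2GFP (adjusted p = 0.0225) and, in PomcGFP, -0.28 ± 0.21 (adjusted p = 0.324). The kiTbr2GFP call was lost without any single array other than NesGFP array 3 among the 6 compared (adjusted p = 0.0634 to 0.17), and the tgTbr2GFP call without tgTbr2GFP array 1 (0.0738), NesGFP array 1 (0.0566) or NesGFP array 2 (0.0813). When only the compared lines were fitted both calls were lost (0.0968 and 0.0554), and with no filter on low values the kiTbr2GFP call was (0.0513). The PomcGFP difference was -0.49 and past the test without NesGFP array 3 (adjusted p = 0.0359).

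**Figure D2:**
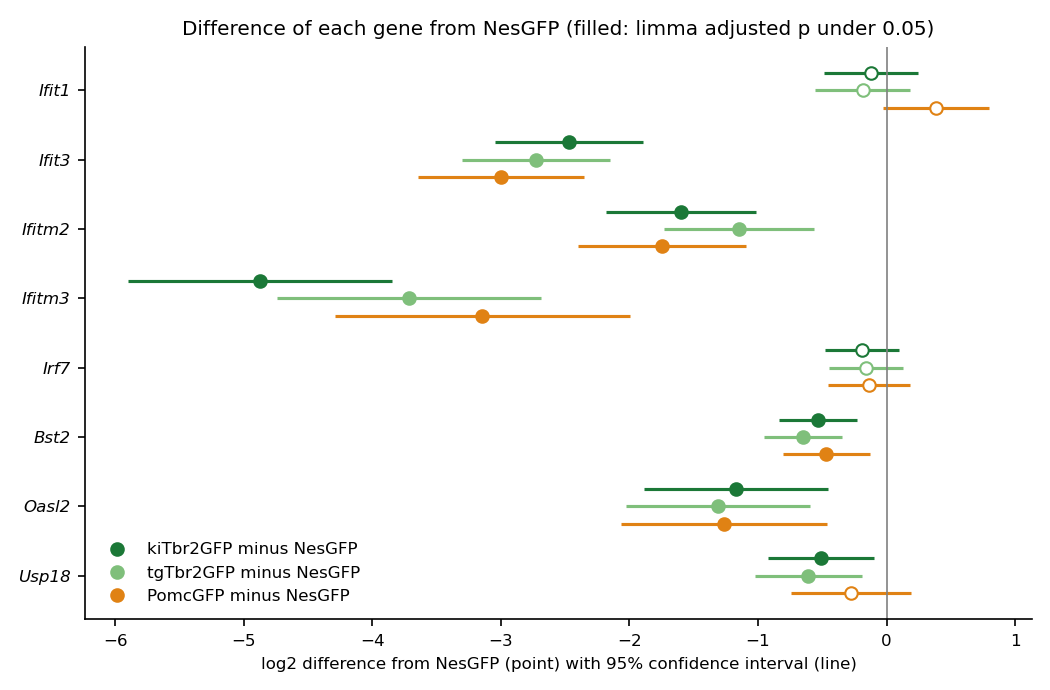
Log2 difference of each interferon response gene from NesGFP in kiTbr2GFP, tgTbr2GFP and PomcGFP, with 95% confidence intervals from the limma fit; filled points passed the test. Ifitm3 lies farthest below 0 and Ifit3 next, while the intervals of Irf7 and Ifit1 include 0.

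The 3 lines other than NesGFP were then compared with each other, which asks whether the genes vary between the Tbr2 reporter populations and the Pomc reporter population, and between the 2 Tbr2 reporters. With the probe sets used, none of the 8 genes passed in PomcGFP against kiTbr2GFP, where 4.88% of all genes did, in PomcGFP against tgTbr2GFP, where 1.37% did, or in kiTbr2GFP against tgTbr2GFP, where 1.12% did (limma). At an unadjusted p under 0.05 there were 2, 1 and 1 of the 8 genes in the 3 comparisons. Ifitm3 averaged 8.68 ± 1.34 in PomcGFP (n = 2) and 6.96 ± 0.49 in kiTbr2GFP (n = 3), with no overlap, a difference of 1.73 ± 0.52 (95% interval 0.58 to 2.88, limma adjusted p = 0.0976). Without PomcGFP array 1 it was 2.68 and passed the test (limma adjusted p = 0.0231). In PomcGFP against kiTbr2GFP markers of several lists were higher in PomcGFP: 4 of 12 microglial, 3 of 16 endothelial, 3 of 10 oligodendrocyte precursor, 3 of 12 neuronal, 2 of 11 oligodendrocyte, 1 of 12 mural and 1 of 13 astrocyte markers. Lower in PomcGFP were 4 of 10 intermediate progenitor and 1 of 12 neural stem cell markers. Over all genes 4.88% passed there, counting both directions. The part of these cell types in the Ifitm3 difference was not tested. Ifitm3 also differed by -1.16 ± 0.47 in kiTbr2GFP against tgTbr2GFP (limma adjusted p = 0.432). Ifit1 was above both Tbr2 lines on both PomcGFP arrays, by 0.51 over kiTbr2GFP (limma adjusted p = 0.202) and by 0.57 over tgTbr2GFP (adjusted p = 0.242). These intervals do not show that the lines have equal levels.

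The order of the 4 line means differed between the genes. Ifitm3 ran NesGFP, PomcGFP, tgTbr2GFP, kiTbr2GFP from high to low, and only the step from NesGFP to PomcGFP passed the test. Ifitm2 ran NesGFP, tgTbr2GFP, kiTbr2GFP, PomcGFP and Ifit3 ran NesGFP, kiTbr2GFP, tgTbr2GFP, PomcGFP, again with only the first step past the test. Ifit1 was the single gene of the 8 whose highest line mean was not NesGFP but PomcGFP, and no step in its order passed.

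Ifitm2 was measured by 3 probe sets, which allowed its pattern to be checked within the array. All 3 were lower in every line against NesGFP. The probe set with the second highest mean was 8.16, 7.91 and 7.94 on the kiTbr2GFP arrays, 8.70, 8.77 and 8.79 on the tgTbr2GFP arrays, 7.71 and 7.96 on the PomcGFP arrays and 10.37, 10.11 and 10.09 on the NesGFP arrays. The probe set with the lowest mean was 8.32, 7.74 and 7.63 on the kiTbr2GFP arrays, 8.58, 8.73 and 8.67 on the tgTbr2GFP arrays, 7.37 and 8.10 on the PomcGFP arrays and 10.31, 10.30 and 10.38 on the NesGFP arrays. Both thus put tgTbr2GFP above kiTbr2GFP and PomcGFP on every array, which the probe set used for the gene did not. For the second probe set Ifitm2 was lower in PomcGFP than in tgTbr2GFP by a log2 difference of -0.92 ± 0.14 (limma adjusted p = 0.00765) and lower in kiTbr2GFP than in tgTbr2GFP by -0.75 ± 0.12 (adjusted p = 0.0149). For the dimmest probe set the differences were -0.92 (adjusted p = 0.0879) and -0.76 (adjusted p = 0.123), and for the probe set used they did not pass. The reading of the other probe sets was added after the data were seen.

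**Figure D3:**
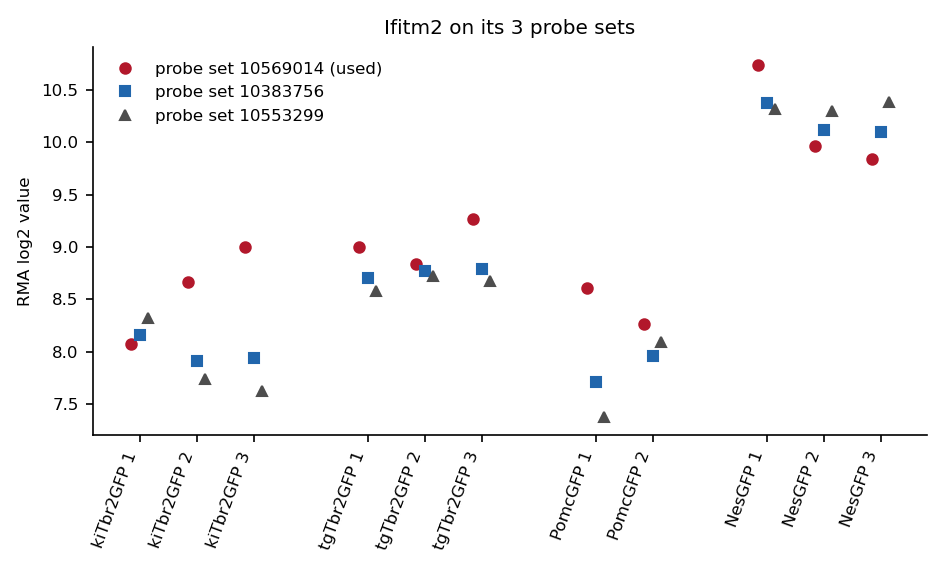
Log2 intensity of the 3 Ifitm2 probe sets on every array, by line from left to right kiTbr2GFP, tgTbr2GFP, PomcGFP and NesGFP. NesGFP is highest on all 3, and the tgTbr2GFP arrays sit above the kiTbr2GFP and PomcGFP arrays on the 2 dimmer ones.

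The other genes of the pathway were described by lists, ordered from receptor to product. Of 13 receptor and signalling genes tested, 7 were lower and 1 higher in kiTbr2GFP, 6 lower and 2 higher in tgTbr2GFP and 6 lower and 1 higher in PomcGFP, each against NesGFP, with list medians of -0.59, -0.36 and -0.45. Over all genes 27.0%, 25.8% and 24.0% were lower and 18.2%, 15.8% and 15.9% higher. Ifngr1, the ligand-binding chain of the interferon gamma receptor, averaged 7.42 ± 0.11 in kiTbr2GFP, 7.16 ± 0.05 in tgTbr2GFP and 6.93 ± 0.15 in PomcGFP, against 9.30 ± 0.29 in NesGFP (SD, n = 3, 3, 2 and 3). It was lower by log2 differences of -1.88, -2.14 and -2.37 (limma adjusted p = 1.5e-06, 9.72e-07 and 1.61e-06). Ifnar2, a chain of the type I receptor, was lower by -1.24, -1.12 and -1.43 in the same 3 comparisons, and Il10rb, a chain shared by the type III receptor, by -1.79, -1.84 and -1.65. Il10rb averaged 6.22 in kiTbr2GFP, 6.17 in tgTbr2GFP and 6.36 in PomcGFP, near the lower quartile, so the size of its differences is uncertain. Irf2, mostly a repressor of interferon-stimulated promoters, was lower by -1.37, -1.17 and -1.42. Not all moved this way: Jak2, a kinase of the gamma receptor, was higher by 0.96 in kiTbr2GFP and 1.11 in tgTbr2GFP (limma adjusted p = 0.0203 and 0.01), and Irf1, an activator induced by interferon gamma, was higher by 0.70 in tgTbr2GFP and 0.67 in PomcGFP (adjusted p = 0.00219 and 0.00631). Stat2, which joins Irf9 in the ISRE-binding complex, passed in none of the 3, and Irf9 was lower by -0.51 in tgTbr2GFP and -0.80 in PomcGFP (limma adjusted p = 0.0268 and 0.00501).

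Among 12 tested nucleic acid sensors and their adaptors, 4, 4 and 3 were lower in kiTbr2GFP, tgTbr2GFP and PomcGFP against NesGFP, shares near the 27.0%, 25.8% and 24.0% of all genes, with medians of -0.15, -0.17 and -0.14. Tlr3, the endosomal receptor of double-stranded RNA, was lower by -2.48, -1.87 and -2.37, and Myd88, the adaptor of most other Toll-like receptors, by -1.79, -1.82 and -1.95. Myd88 averaged 6.44 in kiTbr2GFP, 6.41 in tgTbr2GFP and 6.28 in PomcGFP, not far above the lower quartile, which limits the size of its differences. Ddx58, the cytoplasmic RNA sensor RIG-I, was lower by -1.11, -1.0 and -1.01 (limma adjusted p = 0.000105, 0.000242 and 0.000577).

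Of 35 other type I interferon-induced genes tested out of 45 listed, 17 were lower and 2 higher in kiTbr2GFP, 16 lower and 1 higher in tgTbr2GFP and 17 lower and 2 higher in PomcGFP, with medians of -0.35, -0.32 and -0.46, where 27.0%, 25.8% and 24.0% of all genes were lower. Rsad2 in each line and Parp9 in PomcGFP are among the lower calls although no array of the line was above its lower quartile, so 16, 15 and 15 remain without them. Nmi, an interferon-induced partner of Stat proteins, averaged 7.28 ± 0.36 in kiTbr2GFP, 7.02 ± 0.29 in tgTbr2GFP and 6.89 ± 0.41 in PomcGFP, against 9.48 ± 0.26 in NesGFP, and was lower by -2.20, -2.45 and -2.59 (limma adjusted p = 1.34e-05, 7.47e-06 and 1.5e-05). Rtp4, an interferon-induced receptor-transporting protein, was lower by -2.14, -2.10 and -2.28, Trim25, the ubiquitin ligase that acts with RIG-I, by -1.81, -2.22 and -1.82, and Ly6e, a membrane-anchored restriction factor, by -1.72, -1.94 and -1.86. Rtp4 averaged 6.29 in kiTbr2GFP, 6.33 in tgTbr2GFP and 6.15 in PomcGFP, near the lower quartile, so the size of its differences is uncertain. Against this direction stood Ifit2, a gene of the same family as Ifit1 and Ifit3. Its log2 level was 7.65, 7.67 and 7.43 on the kiTbr2GFP arrays, 7.29, 7.27 and 7.11 on the tgTbr2GFP arrays, 7.15 and 7.08 on the PomcGFP arrays and 6.51, 6.56 and 6.96 on the NesGFP arrays. All arrays of the other lines lay above all NesGFP arrays, with differences of 0.91, 0.55 and 0.44 (limma adjusted p = 0.000209, 0.00652 and 0.0362). Within the Ifit family Ifit2 was therefore higher, Ifit3 lower and Ifit1 not past the test in the same comparisons. Isg15, the modifier that Usp18 removes, was not analysed here.

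A further list of 19 tested genes held members of the Ifit, Ifitm, Oas and Irf families and genes of Irf2-binding proteins. Some are also in the lists above, and no relative of Usp18 was among those tested. Of these, 4 were lower and 2 higher in kiTbr2GFP, and 4 lower and 3 higher in tgTbr2GFP. In PomcGFP 5 were lower and 3 higher. These shares are close to or below those over all genes (27.0%, 25.8% and 24.0% lower, and 18.2%, 15.8% and 15.9% higher). The lower calls include Ifit3b, which was above the lower quartile on no array of the 3 lines, so 3, 3 and 4 remain without it. Ifitm1, the cell-surface member of the Ifitm family, was lower by -1.39, -1.45 and -1.24 (limma adjusted p = 0.000199, 0.000168 and 0.00126), while Ifitm7 was higher by 0.61, 0.60 and 0.48 (adjusted p = 0.00155, 0.00185 and 0.0143). Ifit3b, a close copy of Ifit3, averaged 4.18 ± 0.33 in kiTbr2GFP, 4.61 ± 0.10 in tgTbr2GFP and 4.36 ± 0.50 in PomcGFP, all below the lower quartile, against 6.12 ± 1.04 in NesGFP. Whether Ifit3 and Ifit3b transcripts are kept apart by their probe sets was not tested.

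Class I antigen presentation, which interferon raises so that infected cells show peptides to T cells, had the highest share of lower genes among the lists. Of 14 tested, 11, 10 and 10 were lower and 1 was higher in kiTbr2GFP, tgTbr2GFP and PomcGFP against NesGFP, with medians of -0.83, -0.91 and -0.86, where 27.0%, 25.8% and 24.0% of all genes were lower. B2m, the invariant chain of class I molecules, had log2 levels of 8.55, 8.63 and 8.34 on the kiTbr2GFP arrays, 9.28, 9.11 and 8.71 on the tgTbr2GFP arrays, 9.19 and 9.78 on the PomcGFP arrays and 11.24, 11.34 and 11.43 on the NesGFP arrays. It was far below NesGFP in every line, by -2.83, -2.31 and -1.85 (limma adjusted p = 4.23e-07, 2.05e-06 and 2.99e-05), and higher in PomcGFP than in kiTbr2GFP by 0.98 (adjusted p = 0.0151). The immunoproteasome subunits Psmb8 and Psmb9 were lower by -1.07, -1.13 and -1.03 and by -1.06, -1.17 and -0.91. The 1 higher gene was Nlrc5, the transcriptional coactivator of class I genes, which differed by 0.70, 0.52 and 0.62 (limma adjusted p = 0.00175, 0.0108 and 0.0081). The class I heavy chains H2-K1 and H2-D1 were not analysed here.

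Only 8 of 17 listed interferon gamma-inducible GTPases and chemokines were tested. Of these 2 were lower and 2 higher in kiTbr2GFP, 2 lower and 1 higher in tgTbr2GFP and 1 lower and 1 higher in PomcGFP, where 27.0%, 25.8% and 24.0% of all genes were lower. The lower calls, Irgm1 and Gbp3 in the Tbr2 lines and Irgm1 in PomcGFP, had no array of the line above its lower quartile; they passed the filter through NesGFP, and their count supports nothing about the list. Irgm1, an immunity-related GTPase, averaged 5.80 ± 0.11 in kiTbr2GFP, 5.72 ± 0.26 in tgTbr2GFP and 5.65 ± 0.13 in PomcGFP, against 7.55 ± 1.02 in NesGFP, and the chemokine gene Ccl2 was higher by 0.49, 0.55 and 0.58 (limma adjusted p = 0.00338, 0.00182 and 0.00284). Of 10 feedback regulators of the pathway, 4 were lower and 2 higher in kiTbr2GFP, 3 lower and 2 higher in tgTbr2GFP and 3 lower and 2 higher in PomcGFP, with medians of 0.09, 0.06 and 0.15; these shares of lower genes are not far from the all-gene shares just given. The phosphatase gene Ptpn11 was lower by -0.95, -0.67 and -0.66, and Pias1, an inhibitor of cytokine signalling, was higher by 0.58, 0.58 and 0.47. In the 3 comparisons without NesGFP, the calls in all of these lists were 2, both higher in PomcGFP than in kiTbr2GFP: B2m, given above, and Ifngr2, the signalling chain of the gamma receptor, by 0.63 (limma adjusted p = 0.0284).

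**Figure D4:**
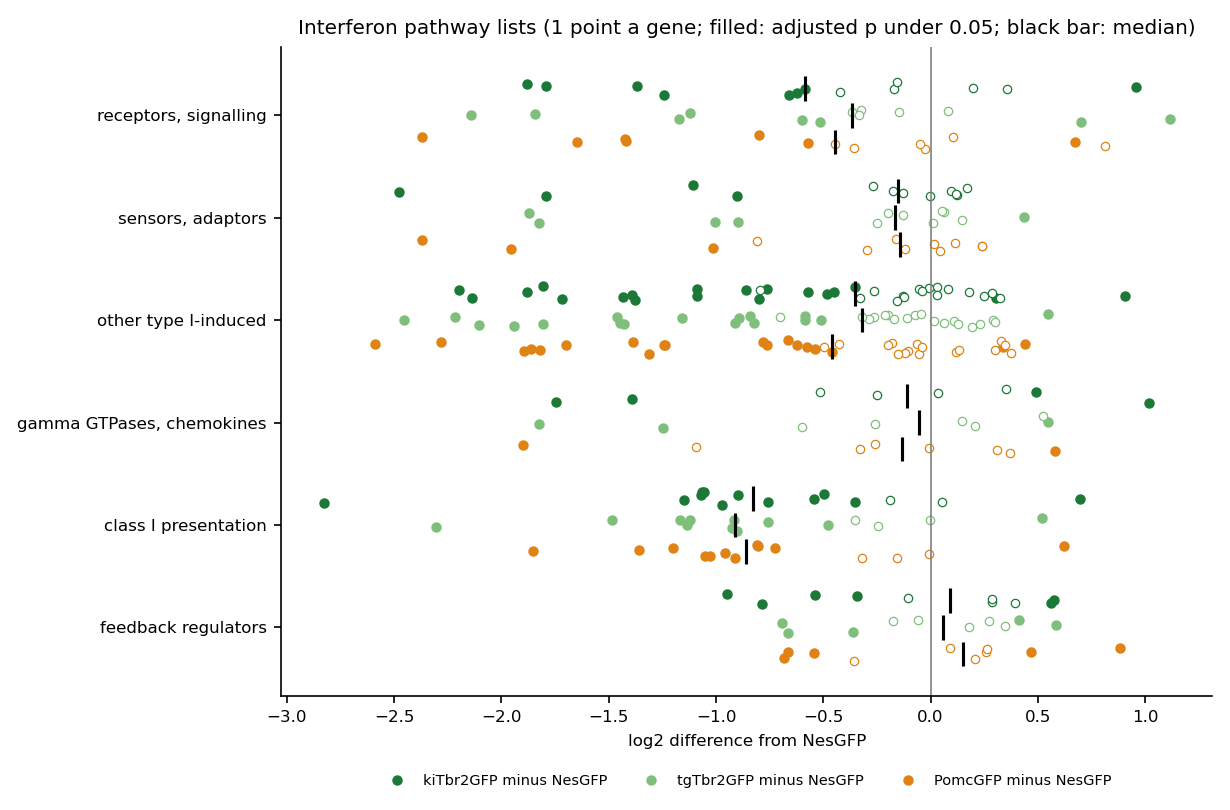
Log2 difference from NesGFP of each tested gene in 6 interferon pathway lists, in kiTbr2GFP, tgTbr2GFP and PomcGFP; each point is a gene, filled where it passed the limma test, and the black bar is the list median. Class I antigen presentation and the receptor list lie mostly below 0, while feedback regulators are centred near 0.

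Markers of several cell types were also lower outside NesGFP. All 16 tested endothelial markers and all 12 mural markers were lower in each of the 3 lines than in NesGFP. Over all genes 27.0%, 25.8% and 24.0% were lower in kiTbr2GFP, tgTbr2GFP and PomcGFP. Tek, Emcn and Slco1a4 had no kiTbr2GFP array above its lower quartile, so 13 endothelial calls remain there without them. Endothelial list medians were -3.34, -2.99 and -2.89, and mural list medians were -2.30, -2.30 and -2.03. All 13 astrocyte markers were lower in each line, and 11, 11 and 6 of 11 oligodendrocyte markers. The oligodendrocyte medians were -2.99, -2.41 and -1.31. Of the 16 endothelial markers 12 to 13 were above the lower quartile on the kiTbr2GFP arrays, 13 to 16 on the tgTbr2GFP arrays, 15 to 16 on the PomcGFP arrays and 16 on the NesGFP arrays. The microglial list had another order. The mean of its 12 markers was 6.86 to 7.11 in kiTbr2GFP, 6.90 to 7.28 in tgTbr2GFP and 7.64 to 7.65 in PomcGFP, against 6.92 to 7.04 in NesGFP. Astrocyte markers were at 7.94 to 8.19 in kiTbr2GFP, 8.39 to 8.87 in tgTbr2GFP and 8.37 to 8.50 in PomcGFP, against 10.03 to 10.18 in NesGFP, and oligodendrocyte markers at 7.30 to 8.02, 7.32 to 9.19 and 8.97 to 8.98, against 10.58 to 10.71 in NesGFP. The part of any cell type, microglia among them, in the levels of the 8 genes was not tested.

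**Figure D5:**
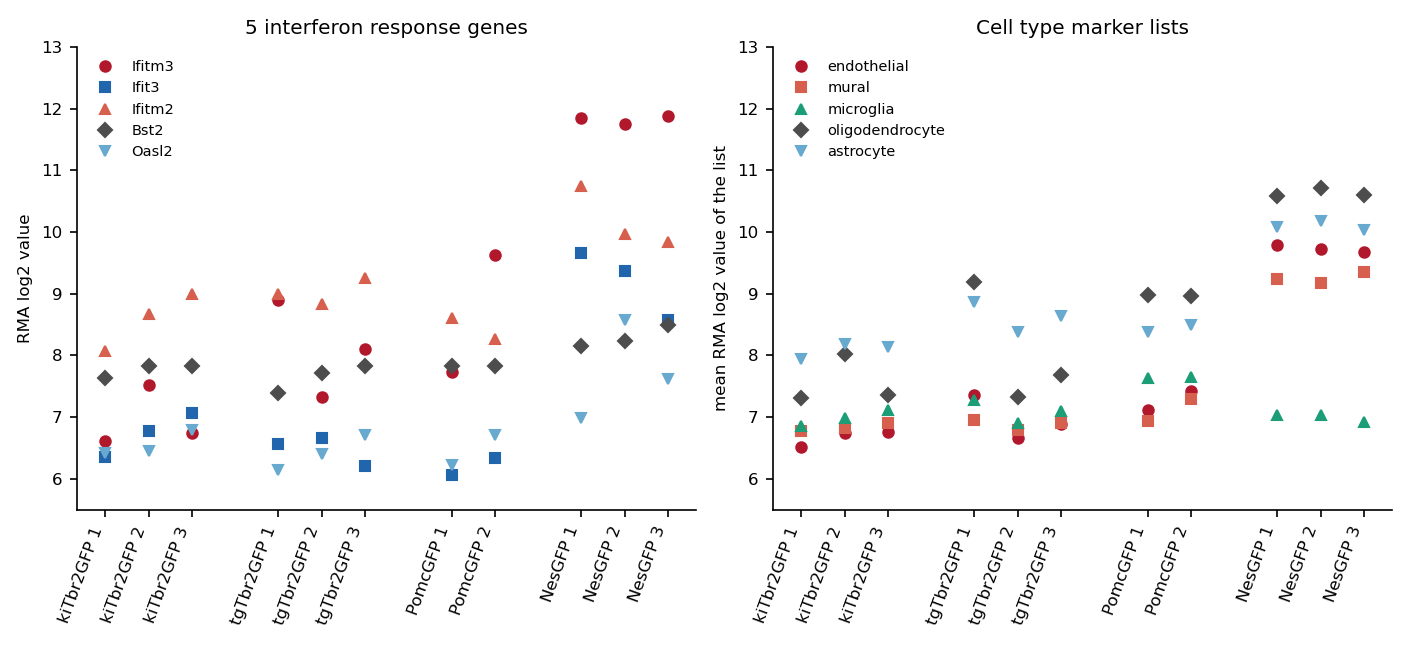
Left, log2 level of the 5 genes that passed the test over the 4 lines (Ifitm3, Ifit3, Ifitm2, Bst2, Oasl2) on each array; right, mean log2 level of 5 cell type marker lists on the same arrays, with arrays along the axis by line, kiTbr2GFP, tgTbr2GFP, PomcGFP and NesGFP. Ifitm3 and the endothelial mean, 9.67 to 9.80, are highest on the NesGFP arrays. So are the mural, astrocyte and oligodendrocyte means, while the microglial mean, 6.92 to 7.04 there, is not.

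The genes nearest to each of the 8 in pattern were found by the root mean square difference, over the 11 arrays, between values centred on each gene's mean, as a description of these arrays only. For Ifitm3, whose own values had a root mean square of 1.97 about their mean, the nearest were Slco1a4 (0.442), Itm2a (0.467) and Flt1 (0.540), and all 3 were in the endothelial marker list. Flt1 was at 6.53, 6.62 and 6.85 on the kiTbr2GFP arrays and 7.67, 6.64 and 7.16 on the tgTbr2GFP arrays. It was at 7.51 and 7.90 on the PomcGFP arrays and 10.72, 10.55 and 10.69 on the NesGFP arrays. For Ifit3 (own value 1.25) they were Pglyrp1 (0.271), Rarres2 (0.304) and Slc38a5 (0.315). Ifitm2 (0.755) had Psenen (0.213), Spata24 (0.226) and Rpp25l (0.231) nearest, and Oasl2 (0.680) had Etv4 (0.207), Colec12 (0.232) and Msrb1 (0.243). The 3 nearest genes were different for each of these 4. For Bst2 (0.290) the nearest was Mad1l1 (0.0507), for Ifit1 (0.268) Rab6b (0.126), for Usp18 (0.321) Tbc1d22b (0.112) and for Irf7 (0.143) Mark2 (0.0878), where the range of values to match was small.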

How the data were processed

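The deposited table holds a log2 value for every probe set on every array. The submitters' processing notes name RMA, which corrects background, normalizes and summarises probes, and oligo; neither version nor their order of use is stated, and the genome build is not given in the sources used here. The platform annotation gives 1 symbol to 21789 of the 28858 probe sets, several to 1621 and none to 5448; only the first kind was used. Probe sets above the 25th percentile of the array on at least 2 arrays were kept (18097), and the one with the highest mean stood for each of 16527 genes. The main model, in limma 3.58.1 under R 4.3.3, had 1 mean per line over the 11 arrays (lmFit, eBayes; 7 residual and 4.22 prior degrees of freedom), with 6 two-sided pairwise comparisons and an F test, Benjamini-Hochberg adjustment over all genes, a threshold of 0.05 and no fold threshold. The 2 PomcGFP arrays borrow the spread estimated over every line, and the small number of arrays limits the precision. Fits were tested on simulated data with 200 changed genes among 16527 in 1 comparison at a time. At a log2 difference of 1, recovery against NesGFP was 76.5% in kiTbr2GFP, 78% in tgTbr2GFP and 70% in PomcGFP. It was 76% in PomcGFP against kiTbr2GFP, 73.5% in PomcGFP against tgTbr2GFP and 76.5% in kiTbr2GFP against tgTbr2GFP. At 0.5, 6% or fewer of the changed genes were recovered. Far more genes were called against NesGFP in the data, 4470 lower and 3002 higher in kiTbr2GFP, which makes the adjusted threshold less strict. These recoveries therefore do not apply to the comparisons with NesGFP.

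The 8 genes and the gene lists were chosen with earlier results of these data known. Named genes were the 8 genes; per interferon list and comparison with NesGFP, up to 4 of the largest differences each way past the test, and up to 2 in the other comparisons; the 3 nearest patterns per gene; and cell type markers. Irf9, Stat2 and the genes named as not analysed were added for their roles. Alternatives were other filters, the mean of a gene's probe sets, cyclic loess or median centring, an intensity trend, array weights, a replicate block, fits of the compared lines alone and leaving out each array. Same-numbered arrays of different lines had deviations that correlated at -0.106 to 0.262, not above 0.1 in every pair, so the numbers were not taken to pair arrays. Promoter sequences are from RefSeq (GRCm38.p6), matched by symbol and searched with Python 3.11.15.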

Additional observations from a re-analysis of the deposited data

How the results depend on the processing

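Each comparison was refitted under the alternatives listed with the methods and, for Ifitm2, with its other probe sets in place of the one used. The probe set refits were added after the data were seen and are included in the counts that follow. Counting each gene, comparison and alternative once, 644 differences kept their direction and their side of the threshold, 19 kept the direction and lost the call, 9 gained one and 18 changed sign, none of these being a called difference. The number of the 8 genes past the test was 1 in place of 0 in PomcGFP against tgTbr2GFP and in kiTbr2GFP against tgTbr2GFP with the mean of a gene's probe sets (Ifitm2, -0.82 and -0.66), and 1 in place of 0 in PomcGFP against kiTbr2GFP and in PomcGFP against tgTbr2GFP with array weights (Ifit1, 0.42 and 0.65). In PomcGFP against NesGFP it was 3 in place of 5 when the compared lines were fitted alone, where Bst2 and Oasl2 were lost (adjusted p = 0.0703 and 0.0904) and fewer arrays estimate the spread. Leaving out 1 array gave 5 to 6 genes in kiTbr2GFP and in tgTbr2GFP against NesGFP, 3 to 6 in PomcGFP against NesGFP, 0 to 1 in PomcGFP against kiTbr2GFP, 0 in both other comparisons and 5 to 7 in the F test. Signs turned for Irf7 in PomcGFP against tgTbr2GFP with cyclic loess (-0.0345) and median centring (-0.0063), and for Oasl2 there with cyclic loess (-0.0087). When 1 array was left out, differences that never passed and changed sign ranged, for Ifit1, from -0.29 to 0.048 (kiTbr2GFP minus NesGFP) and -0.011 to 0.17 (kiTbr2GFP minus tgTbr2GFP); for Irf7, from -0.34 to 0.069 (PomcGFP minus NesGFP), -0.15 to 0.26 (PomcGFP minus kiTbr2GFP), -0.19 to 0.22 (PomcGFP minus tgTbr2GFP) and -0.13 to 0.010 (kiTbr2GFP minus tgTbr2GFP); for Oasl2, from -0.34 to 0.15 (PomcGFP minus kiTbr2GFP) and -0.20 to 0.29 (PomcGFP minus tgTbr2GFP); for Ifitm2, from -0.40 to 0.065 (PomcGFP minus kiTbr2GFP); for Ifitm3, from -0.38 to 1.52 (PomcGFP minus tgTbr2GFP); and for Bst2, from -0.014 to 0.21 (kiTbr2GFP minus tgTbr2GFP). The cause of these changes was not tested.

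With the replicate number as a block, which the arrays' pairing check did not support, 5, 6 and 5 of the 8 genes passed in kiTbr2GFP, tgTbr2GFP and PomcGFP against NesGFP; Usp18 in kiTbr2GFP was lost (adjusted p = 0.0627), and none passed in the other comparisons. Signals in the lower part of the arrays limit Ifit1, Irf7 and Usp18, and also Oasl2 and Ifit3 outside NesGFP. With the filter at the 50th percentile, Ifit1, Irf7 and Usp18 were left out, since no array put them above its median. Oasl2 and Ifit3 passed that filter through NesGFP arrays alone.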

Other observations

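Genes of the interferon lists not described above included Ccl5, a chemokine that attracts T cells, which averaged 8.14 ± 0.48 in kiTbr2GFP (n = 3), 7.65 ± 0.30 in tgTbr2GFP (n = 3) and 7.49 ± 0.06 in PomcGFP (n = 2), against 7.12 ± 0.29 in NesGFP (n = 3). It was higher by 1.02 in kiTbr2GFP (limma adjusted p = 0.00436), with differences of 0.52 and 0.37 in tgTbr2GFP and PomcGFP that did not pass. Herc3, of the family of ligases that attach Isg15 in other members, was higher by 0.88 in PomcGFP (limma adjusted p = 0.00523). Calr, a chaperone of class I loading, was lower by -1.06, -1.49 and -1.20 in kiTbr2GFP, tgTbr2GFP and PomcGFP, and the proteasome activator subunit Psme2 by -0.76, -0.92 and -1.36. Sp100, a nuclear body protein induced by interferon, averaged 5.89 ± 0.35 in kiTbr2GFP, 5.97 ± 0.28 in tgTbr2GFP and 6.38 ± 0.46 in PomcGFP, against 7.77 ± 0.95 in NesGFP. Gbp3, a guanylate-binding protein, was 6.33, 6.43 and 8.32 on the NesGFP arrays, so that its mean there rests largely on array 3, and on no array of the Tbr2 lines was it above the lower quartile.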
